A study of Mus musculus with 6 samples.

Results

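Of the 29044 gene names in the deposited table of peripheral blood (PB) neutrophils, 36 genes of glycolysis and of the response to low oxygen are described here, chosen by symbol. They cover the glucose transporters, hexokinases, the remaining glycolytic enzymes, the enzymes and transporters of lactate, the regulators of phosphofructokinase and of pyruvate dehydrogenase, and the hypoxia-inducible factor (HIF) pathway with 4 of its targets. All 36 matched 1 row each. The samples were 6 Smart-seq2 libraries of sorted CD45+CD11b+Ly6G+ neutrophils, 3 from mice whose molars carried silk ligatures for 14 d (ligature-induced periodontitis, LIP, named Lig in the labels) and 3 from unligated mice (Ctrl). Each library was a pool of neutrophils from 5 mice, and the mice of both groups were wild type C57BL/6 males of 8 weeks. Smart-seq2 libraries are built from full-length cDNA that has been amplified by PCR. Reads therefore are not independent molecules, and p-values measure the spread between these pools, not between single mice.

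Glycolysis splits glucose into pyruvate and yields a little ATP without oxygen. Neutrophils hold few mitochondria and draw most of their ATP from it. HIF-1, a dimer of Hif1a and Arnt, switches on genes of glucose uptake, glycolysis and lactate export, while in the presence of oxygen the prolyl hydroxylases Egln1 to Egln3 mark Hif1a for destruction through Vhl. In myeloid cells Hif1a is also known to accumulate in inflammation without a fall in oxygen.

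Total counts per library lay between 52186555 and 57262379. Levels are given as CPM, the share of a library's counts on a parts-per-million scale, after TMM scaling. TMM sets libraries against each other by their typical gene. Where genes are compared with each other, levels are given as FPKM, which divides by gene length and library total, without TMM. All 21 genes of a list of mature neutrophil markers were detected, and their summed level was 16391 to 18624 CPM in Ctrl and 60254 to 64883 CPM in LIP. Haemoglobin genes took 14.6% to 15.0% of the counts in Ctrl and 1.55% to 1.61% in LIP. The markers of other cells moved with the groups too. All 9 tested erythroid markers were lower in LIP, with a summed level of 131314 to 139675 CPM in Ctrl and 17814 to 18555 CPM in LIP, and Rhag was at 0 in every LIP library. All 11 tested B cell markers were lower, from 7200 to 7755 CPM down to 1293 to 1451 CPM, and all 11 tested T cell markers were lower, from 767 to 823 CPM down to 153 to 190 CPM. Of the 8 monocyte markers 7 were higher, from 1213 to 1563 CPM up to 2303 to 2503 CPM, and all 9 platelet markers were higher, from 1063 to 1284 CPM up to 2736 to 3229 CPM. NK cell markers were at 314 to 370.3 CPM in Ctrl and 404 to 428 CPM in LIP, with 3 of 6 higher. Their mean share of the raw counts, without TMM, was 0.0376% in Ctrl and 0.0366% in LIP. Dendritic cell markers were low, at 11.7 to 21.7 CPM in Ctrl and 29.9 to 36.7 CPM in LIP, and the 1 tested was higher. Eosinophil and basophil markers were low too, at 15.7 to 26.0 CPM in Ctrl and 39.0 to 49.7 CPM in LIP, with 1 of 5 tested higher. No marker of the monocyte, platelet, NK cell, dendritic cell or eosinophil and basophil lists was called lower. In no list was a marker at 0 in all libraries. The part of these shifts in the results that follow was not tested, and in bulk libraries fewer cells of a type and less RNA per cell cannot be told apart.

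Under TMM scaling, though not when libraries were scaled to neutrophil genes, the glucose transporters, the hexokinases, all 5 enzymes of lower glycolysis and the lactate exporter Slc16a3 were higher in LIP, while the phosphofructokinase Pfkl and the lactate dehydrogenase Ldhb were not called. Of the 36 genes, 33 had a mean FPKM of at least 1 and entered the quasi-likelihood test of edgeR, a called gene having an adjusted p under 0.05. Of these, 22 genes (66.7%) were higher in LIP, against 26.5% of all 10433 genes tested, and 3 (9.09%) were lower, against 27.2% of all genes. In either direction 53.7% of all genes were called. The 3 genes that fell were Slc16a1, Pdk1 and Bnip3l, and the 8 that did not pass the test were Pfkl, Ldhb, Pdk2, Pdk3, Vhl, Egln1, Egln2 and Ddit4. The libraries of the 2 groups did not overlap for 78.8% of the 33 genes, 22 of them higher and 4 lower in LIP, against 63.4% of all genes. The median log2 fold change was 0.90, against -0.10 over all genes, whose quartiles were -0.84 and 0.64. These directions hold for TMM scaling: when the libraries were instead scaled to the mature neutrophil markers, which were themselves higher in LIP (median log2 fold change 1.86), the medians moved to -0.92 for these genes and -1.92 for all genes. With that scaling 0 of the 33 were higher and 24 (72.7%) were lower, against 0.518% and 88.3% of all genes tested, so that most genes of the table were lower with it.

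**Figure D1:**
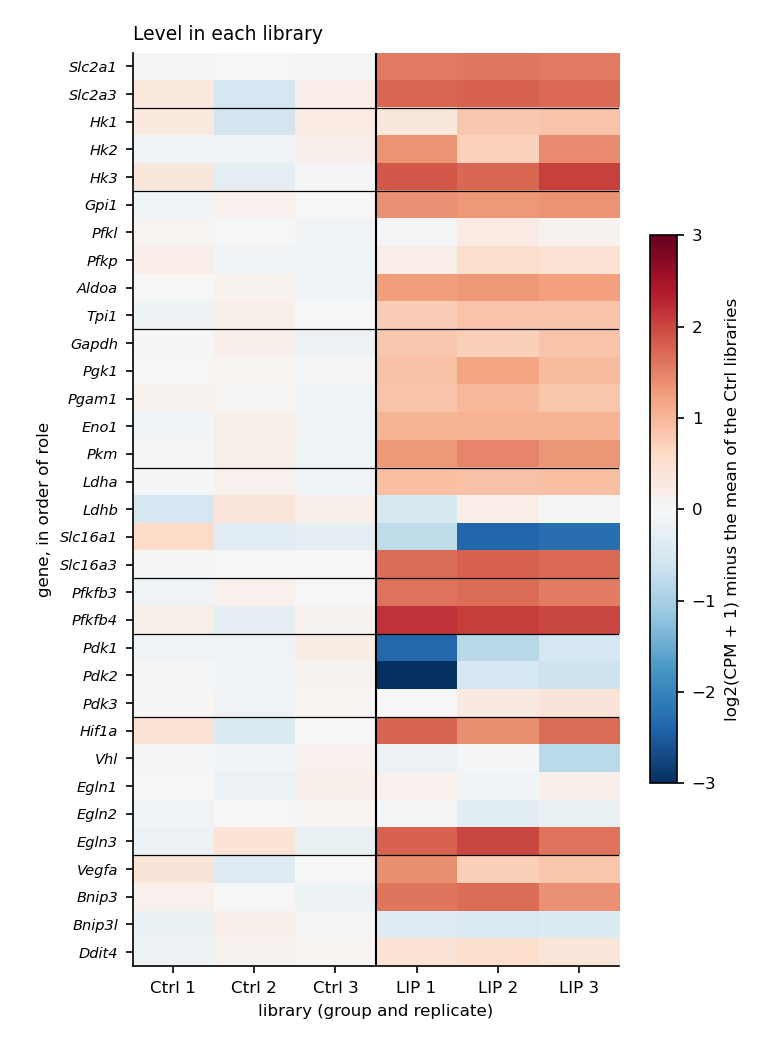
Level of the 33 tested genes (rows, in order of role) in each of the 6 libraries (columns), as log2(CPM + 1) minus the mean of the Ctrl libraries. Red is above and blue below that mean, with colours capped at 3 on either side. Most rows are red across all 3 LIP libraries under this TMM scaling (23 of the 33 fold changes change sign when scaled to mature neutrophil genes). Slc16a1, Pdk1 and Pdk2 are blue, as is Bnip3l more faintly. LIP 1 is the darkest of the LIP libraries for Pdk1 and Pdk2.

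HIF-1 is known to bind a short DNA core, the hypoxia response element. Its letters, ACGTG or GCGTG on either strand, were searched in the 250 bases before the RefSeq transcript starts of GRCm38.p6. A palindrome, CACGTG, counts as 2 overlapping matches. Of the 34 genes with an entry (Slc2a3 and Bnip3l were not matched), 31 (91.2%) held a core in at least 1 window, against 41.5% of the 27025 genes with an entry and 61.6% of the 7265 tested genes with an entry. By window, the shares were 80.8% of 52 for these genes, 56.0% of 9187 for tested genes and 38.6% of 32851 for all. The genes were chosen for their roles, with known HIF targets among them, so these shares are a description and not a test. The core was also common among genes that did not rise: 2 of 2 lower and 7 of 8 uncalled genes held it, beside 19 of 21 higher genes. Shown here are windows of 3 genes that rose under TMM scaling and held from 5 matches down to 1 (Ldha, Pgk1 and Egln3), and of Slc16a1, which fell and still held 4. Cores are in capitals and each window is written 5′ to 3′ on the strand of its gene.
Ldha (chr7:46845554-46845803, + strand, 5 matches, 2 of the capital runs being palindromes): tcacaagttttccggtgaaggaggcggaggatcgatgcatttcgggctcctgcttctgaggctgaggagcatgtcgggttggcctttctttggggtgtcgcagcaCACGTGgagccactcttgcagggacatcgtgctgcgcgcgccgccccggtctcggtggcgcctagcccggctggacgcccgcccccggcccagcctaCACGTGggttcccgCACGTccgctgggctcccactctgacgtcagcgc
Pgk1 (chrX:106186850-106187099, + strand, 2 matches): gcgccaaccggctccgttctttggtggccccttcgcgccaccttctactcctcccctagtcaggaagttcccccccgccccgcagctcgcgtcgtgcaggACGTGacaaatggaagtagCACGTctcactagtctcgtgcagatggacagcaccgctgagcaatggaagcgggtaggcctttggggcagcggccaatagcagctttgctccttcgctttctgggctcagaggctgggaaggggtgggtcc
Egln3 (chr12:54203875-54204124, - strand, 1 match): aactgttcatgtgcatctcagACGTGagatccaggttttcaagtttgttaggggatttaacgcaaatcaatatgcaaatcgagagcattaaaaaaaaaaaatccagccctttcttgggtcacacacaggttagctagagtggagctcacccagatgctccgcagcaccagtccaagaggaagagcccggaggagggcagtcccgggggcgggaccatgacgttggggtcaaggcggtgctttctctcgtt
Slc16a1 (chr3:104638414-104638663, + strand, 4 matches, 1 palindrome): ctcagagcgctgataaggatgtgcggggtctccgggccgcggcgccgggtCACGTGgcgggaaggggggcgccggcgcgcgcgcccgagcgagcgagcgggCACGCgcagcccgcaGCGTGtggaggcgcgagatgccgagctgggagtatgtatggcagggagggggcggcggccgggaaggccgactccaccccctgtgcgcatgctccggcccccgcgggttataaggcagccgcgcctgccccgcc
A match in letters is not a bound site, and binding was not measured in these data.

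Glucose enters the cell through facilitated transporters, and both of those studied were higher in LIP under TMM scaling and slightly lower (log2 -0.25 and -0.15) when scaled to mature neutrophil genes. Slc2a1 encodes GLUT1, the basal glucose transporter of most cells (ENSMUSG00000028645, chr4:119108711-119137983, + strand). It stood at 135, 131 and 127 CPM in Ctrl 1 to 3 and at 385, 393 and 387 CPM in LIP 1 to 3. The groups lay far apart relative to their spread, 2.96-fold (log2 1.57, SE 0.0944, adjusted p = 5.73e-07). Slc2a3 encodes GLUT3, a transporter of high affinity (ENSMUSG00000003153, chr6:122727809-122779957, - strand). Its level was 192, 106 and 178 CPM in Ctrl and 509, 525 and 505 CPM in LIP, with Ctrl 2 the lowest and no overlap (3.23-fold, log2 1.69, SE 0.188, adjusted p = 3.32e-05). Per length, Slc2a1 was the more abundant of the pair, at 38.1 ± 1.67 FPKM in Ctrl and 91.2 ± 1.34 FPKM in LIP against 22.4 ± 6.75 and 58.3 ± 1.36 FPKM for Slc2a3 (SD, n = 3 each).

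Hexokinases trap glucose in the cell as glucose-6-phosphate. All 3 were higher in LIP under TMM scaling, while scaled to mature neutrophil genes Hk1 and Hk2 turned lower (-1.19 and -0.43) and Hk3 was at 0.05. Hk3, the most abundant of the 3 per length (ENSMUSG00000025877, chr13:55005985-55021385, - strand), was at 109, 71.5 and 83.0 CPM in Ctrl and 317, 290.1 and 362 CPM in LIP. This was the largest rise of the 3, 3.67-fold without overlap (log2 1.88, SE 0.162, adjusted p = 5.48e-06). Hk2, the inducible form, was low, at 3.68, 3.62 and 4.51 CPM in Ctrl and 11.6, 6.95 and 12.2 CPM in LIP (log2 1.38, SE 0.332, adjusted p = 0.0054). Hk1, the form bound to mitochondria in most tissues, was at 59.7, 33.3 and 58.6 CPM in Ctrl and 62.5, 86.8 and 88.5 CPM in LIP. Its lowest LIP library was just above the highest Ctrl library, and its call (log2 0.65, SE 0.225, adjusted p = 0.032) was lost without Ctrl 2, LIP 2 or LIP 3 (adjusted p = 0.0535, 0.0987 and 0.0953). With library totals as the scaling the fold change of Hk1 was 0.32 (adjusted p = 0.263), and limma on log2(FPKM + 1) gave 0.32 (adjusted p = 0.242).

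In upper glycolysis, from glucose-6-phosphate to the triose phosphates, 4 of the 5 tested genes were higher in LIP under TMM scaling, and all 5 were lower when scaled to mature neutrophil genes (log2 -0.48 for Gpi1, -1.73 for Pfkl, -1.44 for Pfkp, -0.56 for Aldoa and -0.997 for Tpi1). Aldoa, the aldolase that cleaves fructose-1,6-bisphosphate (ENSMUSG00000030695, chr7:126795234-126800751, - strand), was the most abundant gene of the set per length, at 178 ± 10.6 FPKM in Ctrl and 345 ± 8.6 FPKM in LIP (SD, n = 3 each). In CPM it stood at 505, 546 and 479 in Ctrl and 1207, 1253 and 1204 in LIP, with narrow groups and no overlap (log2 1.26, SE 0.0844, adjusted p = 1.09e-06). Gpi1, glucose-6-phosphate isomerase (ENSMUSG00000036427, chr7:34201330-34230336, - strand), had the largest rise of this stage, from 189, 226 and 211 CPM to 537, 509.7 and 528 CPM (2.52-fold, log2 1.33, SE 0.1, adjusted p = 2.18e-06). Tpi1, which interconverts the triose phosphates, rose from 53.3 ± 5.84 to 93.9 ± 4.21 CPM (SD, n = 3 each; log2 0.82, SE 0.129, adjusted p = 0.000383). It overlaps Spsb2 on the opposite strand by 34 bases.

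For phosphofructokinase, the committed step, the differences between groups were small under TMM scaling. Pfkl, its liver form and the most abundant of the 3 here, was at 75.3, 69.9 and 67.0 CPM in Ctrl and 68.4, 83.5 and 75.6 CPM in LIP, and the groups overlapped (log2 0.10, 95% interval -0.18 to 0.38, adjusted p = 0.523). Pfkp, the platelet form, was at 74.2, 61.0 and 58.4 CPM in Ctrl and 73.4, 92.9 and 86.8 CPM in LIP. Its groups overlapped although it was called (log2 0.39, SE 0.144, adjusted p = 0.0434), and without Ctrl 2, Ctrl 3, LIP 2 or LIP 3 the adjusted p rose to between 0.0744 and 0.154. With library totals the fold change of Pfkp was 0.06 (adjusted p = 0.761). Pfkp shares 748 bases with Pitrm1 on the opposite strand, and reads there cannot be assigned when the strand setting is not given. Pfkm, the muscle form, was under the expression filter at 0.755, 0.350 and 0.673 FPKM in Ctrl and 0.0378, 0.294 and 0.188 FPKM in LIP. Aldoc, the brain aldolase, was under it too, between 0.224 and 1.64 FPKM over the 6 libraries.

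The PFKFB enzymes make and break fructose-2,6-bisphosphate, the strongest activator of phosphofructokinase. Both tested members were higher in LIP under TMM scaling, and scaled to mature neutrophil genes Pfkfb3 was at log2 -0.19 and Pfkfb4 at 0.25, neither called. Pfkfb4 (ENSMUSG00000025648, chr9:108991778-109032228, + strand) had the largest fold change of all 33 genes under TMM scaling. It was at 97.0, 70.4 and 93.2 CPM in Ctrl and 389, 365 and 348 CPM in LIP, 4.23-fold apart (log2 2.08, SE 0.137, adjusted p = 9.58e-07). Pfkfb3, the form with the highest kinase activity, was at 54.8, 66.3 and 59.6 CPM in Ctrl and 186, 195 and 176 CPM in LIP (3.09-fold, log2 1.63, SE 0.119, adjusted p = 1.89e-06). No library of either gene crossed into the other group. Pfkfb2, the heart form, was between 0.0114 and 0.278 FPKM and was not tested.

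In lower glycolysis, which recovers ATP from the triose phosphates, all 5 genes were higher in LIP with no overlap under TMM scaling, and all 5 were lower when scaled to mature neutrophil genes (log2 -0.99 for Gapdh, -0.79 for Pgk1, -0.93 for Pgam1, -0.78 for Eno1 and -0.46 for Pkm). Pkm, pyruvate kinase (ENSMUSG00000032294, chr9:59656368-59679375, + strand), makes pyruvate and was the most abundant of them. It was at 768, 901 and 733 CPM in Ctrl and 1981, 2188 and 1994 CPM in LIP, so that its lowest LIP library was above its highest Ctrl library by a wide margin (2.57-fold, log2 1.36, SE 0.0956, adjusted p = 1.45e-06). The table does not separate its M1 and M2 splice forms. Its span shares 3887 bases with Gm49759 on the same strand, at a mean of 1.99 FPKM against 250.6 FPKM for Pkm. Eno1, enolase (ENSMUSG00000063524, chr4:150236721-150248879, + strand), was at 625, 745 and 613 CPM in Ctrl and 1336, 1352 and 1364 CPM in LIP (log2 1.03, SE 0.0933, adjusted p = 7.84e-06). A near copy, Eno1b, carried 16.4% as many reads as Eno1 and differed by log2 1.06 (SE 0.116, adjusted p = 3e-05), and how reads were divided between them is not given.

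Pgk1, phosphoglycerate kinase, rose from 42.5 ± 1.85 to 86.7 ± 10.1 CPM (log2 1.03, SE 0.133, adjusted p = 9.94e-05). Pgam1, phosphoglycerate mutase, rose from 86.2 ± 7.23 to 159.9 ± 7.91 CPM (log2 0.89, SE 0.115, adjusted p = 9.62e-05; SD, n = 3 each). The row of Gapdh was far below its neighbours in the pathway, at 3.39 ± 0.415 FPKM in Ctrl and 4.88 ± 0.249 FPKM in LIP. It was at 14.0, 15.4 and 11.96 CPM in Ctrl and 24.6, 23.2 and 25.7 CPM in LIP (log2 0.83, SE 0.201, adjusted p = 0.0056), and was not called with library totals (log2 0.50, adjusted p = 0.0535). Its pseudogenes Gapdh-ps15 and Gapdh-ps16 together held a mean of 1545.3 reads per library against 1004.8 on the gene itself, so the Gapdh level in this table is uncertain. Both pseudogene rows were higher in LIP as well, by log2 1.20 (adjusted p = 0.00115) and 1.37 (adjusted p = 0.000446).

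Lactate handling split by isoform. Lactate dehydrogenase A, which turns pyruvate into lactate, and the exporter Slc16a3 rose under TMM scaling and were at log2 -0.92 and -0.11 when scaled to mature neutrophil genes, whereas Slc16a1 fell under both. Slc16a3 encodes MCT4, the low-affinity lactate exporter of glycolytic cells (ENSMUSG00000025161, chr11:120948480-120958775, + strand). It was at 409, 422 and 422 CPM in Ctrl and 1326, 1417 and 1347 CPM in LIP, 3.27-fold apart, and had the smallest p of the 33 genes (log2 1.71, SE 0.0795, adjusted p = 1.51e-07). Ldha (ENSMUSG00000063229, chr7:46841475-46855627, + strand) was at 202, 227 and 198 CPM in Ctrl and at 391.9, 387 and 388 CPM in LIP, the latter within a few CPM of each other (log2 0.90, SE 0.0975, adjusted p = 2.87e-05). Slc16a1 encodes MCT1, which carries lactate in either direction in oxidative cells and is abundant in red cell precursors (ENSMUSG00000032902, chr3:104638668-104658462, + strand). Its values were 25.9, 13.2 and 13.7 CPM in Ctrl and 9.46, 2.40 and 2.72 CPM in LIP, with 1 library in each group well above the other two (log2 -1.86, SE 0.524, adjusted p = 0.0125). Without Ctrl 1 the fold change was -1.46 (adjusted p = 0.0589). Ldhb, the heart form that favours pyruvate, was low, at 2.91 to 6.18 CPM in Ctrl and 3.02 to 5.36 CPM in LIP, and overlapped (log2 -0.15, 95% interval -1.04 to 0.75, adjusted p = 0.772).

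Pyruvate dehydrogenase kinases keep pyruvate out of the mitochondrial acetyl-CoA step, and Pdk1 is a textbook HIF-1 target. None of the 3 rose. Scaled to mature neutrophil genes all 3 were called lower (log2 -2.94 for Pdk1, -3.06 for Pdk2 and -1.59 for Pdk3). Pdk1 (ENSMUSG00000006494, chr2:71873224-71903858, + strand) was at 22.2, 22.4 and 28.3 CPM in Ctrl and 3.89, 13.1 and 16.4 CPM in LIP, without overlap and with LIP 1 the lowest. Its fall passed the threshold narrowly (log2 -1.12, SE 0.422, adjusted p = 0.044), and the adjusted p was 0.0706, 0.0829, 0.125 and 0.0657 without Ctrl 1, Ctrl 2, Ctrl 3 or LIP 2. Pdk2 was at 9.90, 9.50 and 11.0 CPM in Ctrl and 0.101, 6.69 and 6.22 CPM in LIP. Every LIP library lay below every Ctrl library, but LIP 1 held only 5 reads and the spread left the gene uncalled (log2 -1.23, 95% interval -3.17 to 0.72, adjusted p = 0.258). Pdk2 was called lower by limma on log2(FPKM + 1) (log2 -1.13, adjusted p = 0.0163) but not on log2(FPKM + 0.1) (adjusted p = 0.0617). Pdk3, the most abundant of the 3 at 6.92 ± 0.528 FPKM in Ctrl and 6.596 ± 0.902 FPKM in LIP (SD, n = 3 each), was at 17.9, 16.1 and 18.2 CPM in Ctrl and 17.6, 21.2 and 22.9 CPM in LIP. Its groups overlapped (log2 0.24, 95% interval -0.21 to 0.69, adjusted p = 0.342).

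In the HIF pathway the oxygen-regulated subunit and 1 hydroxylase rose under TMM scaling, and scaled to mature neutrophil genes Hif1a was at log2 -0.25 and Egln3 at 0.04, neither called. With that scaling Egln1, Egln2 and Vhl were called lower (log2 -1.75, -2.00 and -2.15). Hif1a (ENSMUSG00000021109, chr12:73901375-73947530, + strand) was at 126, 68.9 and 91.8 CPM in Ctrl and 313, 245 and 301 CPM in LIP (2.99-fold, log2 1.58, SE 0.2, adjusted p = 8.26e-05). Its protein is controlled mainly by degradation, which these data do not measure. Egln3, the hydroxylase PHD3, itself a HIF target (ENSMUSG00000035105, chr12:54178981-54203860, - strand), was at 11.2, 17.3 and 10.8 CPM in Ctrl and 45.8, 54.7 and 41.9 CPM in LIP (3.62-fold, log2 1.86, SE 0.227, adjusted p = 6.62e-05). Neither gene overlapped between groups. Egln2, the hydroxylase PHD1 and the most abundant of the 3 in both groups (ENSMUSG00000058709, chr7:27158658-27166802, - strand), was at 71.99, 76.4 and 78.8 CPM in Ctrl and 73.5, 60.2 and 65.8 CPM in LIP. It overlapped and was not called (log2 -0.19, 95% interval -0.47 to 0.09, adjusted p = 0.233), but was lower with library totals as the scaling (log2 -0.52, adjusted p = 0.00546). Egln1, the main oxygen sensor PHD2, was at 35.3 ± 4.14 CPM in Ctrl and 36.9 ± 3.56 CPM in LIP (SD, n = 3 each; log2 0.07, 95% interval -0.30 to 0.43, adjusted p = 0.752). Vhl, the ubiquitin ligase subunit that binds hydroxylated Hif1a, was at 17.9 to 21.1 CPM in Ctrl and 10.5 to 18.6 CPM in LIP, with an overlap (log2 -0.32, 95% interval -0.89 to 0.24, adjusted p = 0.302).

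The 4 HIF targets outside glycolysis did not move together under TMM scaling, while all 4 had negative fold changes when scaled to mature neutrophil genes. Bnip3, a mitophagy receptor (ENSMUSG00000078566, chr7:138890836-138909519, - strand), was at 51.1, 47.3 and 42.01 CPM in Ctrl and 145, 150.4 and 123 CPM in LIP (2.98-fold, log2 1.57, SE 0.134, adjusted p = 4.88e-06). Vegfa, the angiogenic growth factor (ENSMUSG00000023951, chr17:46016993-46032369, - strand), was at 13.8, 7.64 and 10.4 CPM in Ctrl and 28.7, 17.6 and 19.3 CPM in LIP (2.06-fold, log2 1.04, SE 0.29, adjusted p = 0.0117), and was not called with library totals (log2 0.71, adjusted p = 0.0619). Scaled to mature neutrophil genes these were at log2 -0.25 and -0.79. Bnip3l, also named Nix, removes mitochondria from maturing red cells (ENSMUSG00000022051, chr14:66985239-67008877, - strand). It was at 293, 377 and 347 CPM in Ctrl and 256, 245 and 252 CPM in LIP, lower in LIP with no overlap (log2 -0.43, SE 0.111, adjusted p = 0.00772). Its pseudogene row held 10.8% as many reads. Ddit4, an inhibitor of mTORC1 also named REDD1, was at 7.28, 8.96 and 8.55 CPM in Ctrl and 11.3, 12.2 and 10.9 CPM in LIP. The groups did not overlap, yet the gene was not called (log2 0.47, 95% interval -0.09 to 1.04, adjusted p = 0.141).

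**Figure D2:**
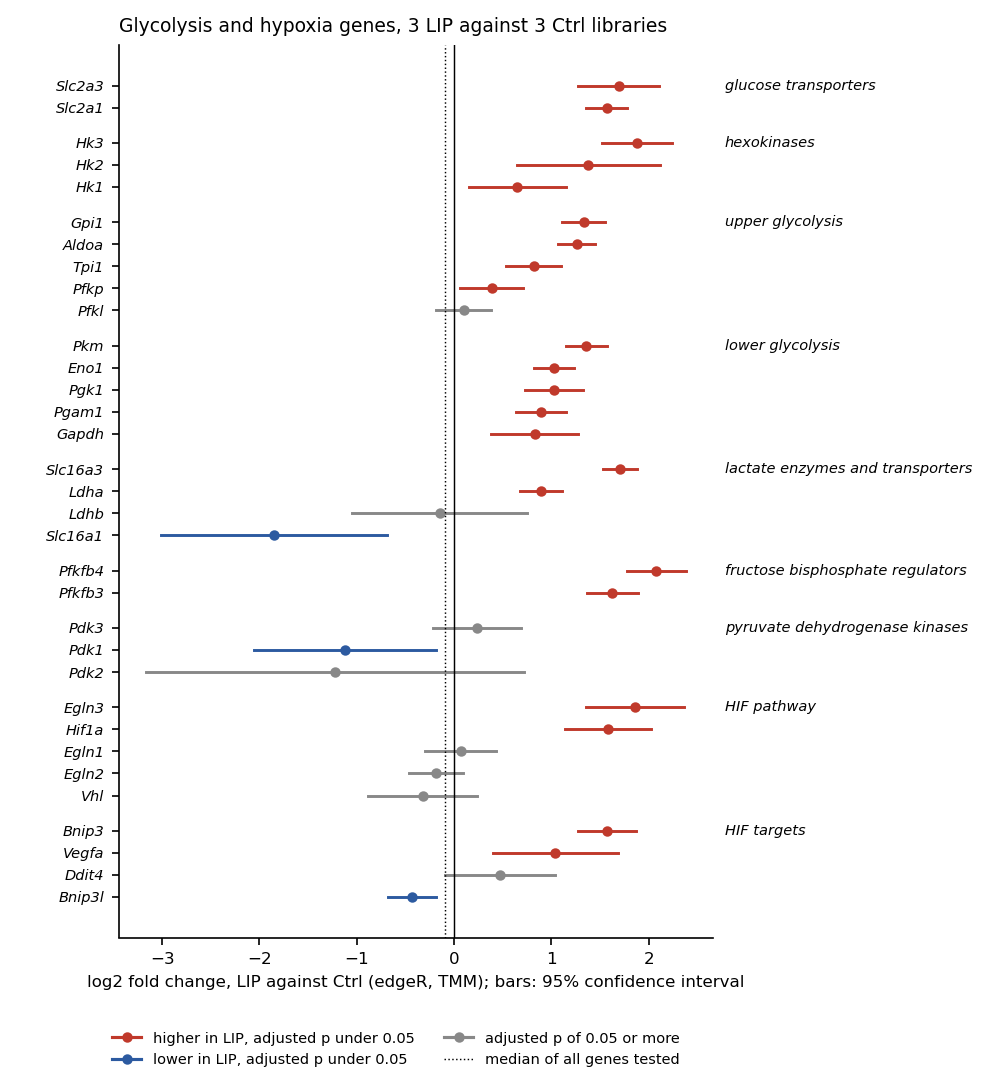
Log2 fold change of LIP against Ctrl under TMM scaling for the 33 tested genes, grouped by role, from 3 libraries per group. Points are edgeR estimates and bars 95% confidence intervals, red for higher, blue for lower and grey for uncalled genes, with a dotted line at the median of all genes tested (-0.10). The 22 red points run from 0.39 (Pfkp) to 2.08 (Pfkfb4), and 23 of the 33 signs turn under scaling to mature neutrophil genes.

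Because a share within a family is taken inside each library, it does not depend on the scaling between libraries. Shares of the summed FPKM of a family are given as descriptions, without a test. Hk3 made up 79.6%, 81.2% and 74.7% of the 3 hexokinases in Ctrl and 90.3%, 87.4% and 88.8% in LIP, without overlap, while Hk1 fell from 19.3% ± 3.27 to 9.45% ± 1.8 (SD, n = 3 each). Hk2 was a minor part in both groups, at 2.23% ± 0.497 and 1.72% ± 0.389. The glucose transporters kept overlapping shares, Slc2a1 being at 63.5% ± 7.13 in Ctrl and 61.0% ± 0.301 in LIP.

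Among phosphofructokinases Pfkl held 66.4% ± 1.94 in Ctrl and 63.7% ± 1.15 in LIP with an overlap, and Pfkp 30.0% ± 1.37 and 35.2% ± 0.623 without one. Slc16a3 already made up 92.9% to 96.4% of the monocarboxylate transporter pair in Ctrl and was at 99.2% to 99.8% in LIP. Ldha was at 95.5% ± 1.38 of the dehydrogenases in Ctrl and 97.7% ± 0.616 in LIP. Pfkfb4 took 68.3% ± 5.86 of the PFKFB sum in Ctrl and 75.3% ± 1.09 in LIP.

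Larger shifts lay in the kinases, the hydroxylases and the Bnip3 pair. Pdk3 was at 51.9% ± 1.96 (SD, n = 3) of the kinases in Ctrl and at 92.9%, 68.5% and 68.7% in LIP, where LIP 1 again stood apart. Egln3 was at 10.5%, 15.3% and 9.41% of the hydroxylases in Ctrl and at 31.7%, 40.1% and 31.4% in LIP, while Egln2 went from 64.7% ± 0.456 to 45.8% ± 3.35. The summed FPKM of the 3 hydroxylases was 42.53 in Ctrl and 42.66 in LIP. Unlike the shares, such sums depend on the scaling between libraries, which for FPKM is by library totals and not by TMM. The TMM factors were 1.1 to 1.14 in Ctrl and 0.887 to 0.902 in LIP, so TMM would place LIP sums higher relative to Ctrl. Bnip3 was at 22.9%, 17.6% and 17.1% of the sum with Bnip3l in Ctrl and at 49.0%, 51.1% and 45.4% in LIP, with sums of 110.4 and 104.2 FPKM. The cell type markers differed between the groups as well, and their part in these shares was not tested.

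**Figure D3:**
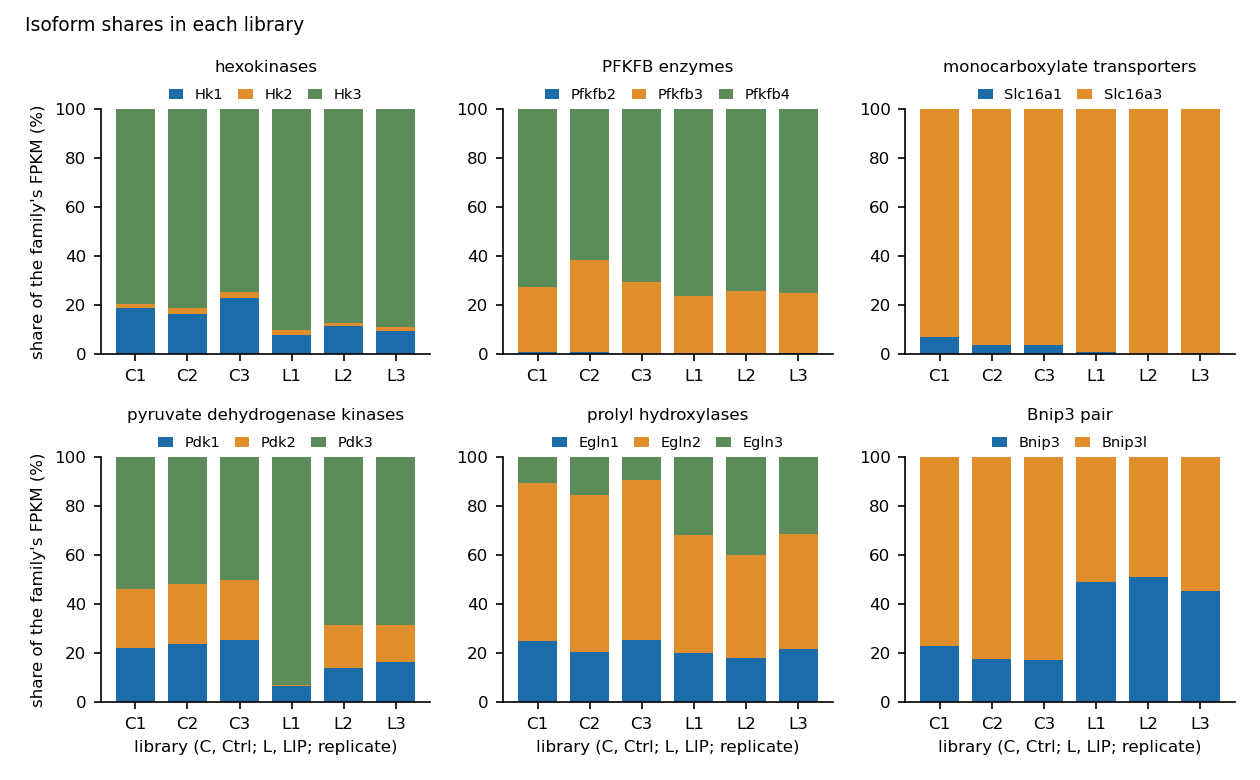
Share of each isoform in the summed FPKM of its family (stacked bars, in percent) in each library, C for Ctrl and L for LIP. Hk3, Pfkfb4, Slc16a3, Pdk3, Egln3 and Bnip3 take larger shares in all 3 LIP libraries than in any Ctrl library, and Pdk3 reaches 92.9% in L1.

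Other genes of these pathways were read from 5 lists of textbook members, in which 63 of 68 symbols matched a row and 40 were tested. Under TMM scaling 18 of the 40 (45.0%) were higher and 6 (15.0%) were lower in LIP, with a median log2 fold change of 0.33. Over all genes tested 26.5% were higher and 27.2% lower. The same shares stand beside the counts of the single lists below, each of which rests on few genes. Scaled to mature neutrophil genes, 0 of the 40 were higher and 35 (87.5%) lower, a share near the 88.3% of all genes tested. In the list of other glycolytic genes 2 of 5 were higher and 1 lower. Slc2a6, a transporter of the GLUT family found in leukocytes, was at 98.6, 93.7 and 89.3 CPM in Ctrl and 289.9, 286 and 273 CPM in LIP (log2 1.59, SE 0.103, adjusted p = 8.5e-07). Bpgm makes 2,3-bisphosphoglycerate, the red cell regulator of haemoglobin. It had the largest change of any gene in these lists (log2 -3.31, SE 0.171, adjusted p = 2.5e-07). Its level was 258, 389 and 314 CPM in Ctrl and 32.5, 28.5 and 35.995 CPM in LIP. The summed erythroid markers were lower in LIP too, and a link between them and Bpgm was not tested.

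Of 7 tested pentose phosphate genes, which branch off at glucose-6-phosphate and supply NADPH, 4 were higher and 1 was lower. G6pdx, the entry enzyme, was at 97.4, 102 and 101 CPM in Ctrl and 250.3, 268 and 279.6 CPM in LIP (log2 1.41, SE 0.103, adjusted p = 1.83e-06). Its span shares 19712 bases with Ikbkg on the opposite strand, at a mean of 1.95 FPKM against 52.1 FPKM for G6pdx. Pgls, 6-phosphogluconolactonase, fell from 55.3 ± 3.66 to 29.9 ± 0.316 CPM (SD, n = 3 each; log2 -0.89, SE 0.14, adjusted p = 0.000391). It shares 3445 bases with Fam129c on the same strand, so that its value is uncertain. Of 8 tested genes of pyruvate entry into mitochondria, 1 was higher and 2 were lower, with a list median of -0.27. Mpc1, a subunit of the mitochondrial pyruvate carrier, rose from 71.7 ± 5.71 to 135.6 ± 7.31 CPM (log2 0.92, SE 0.117, adjusted p = 8.78e-05), and Pdhb, the beta subunit of pyruvate dehydrogenase, fell from 82.6 ± 9.3 to 54.6 ± 13.8 CPM (log2 -0.60, SE 0.189, adjusted p = 0.0211). The call of Pdhb was lost without Ctrl 2 (adjusted p = 0.0744) or LIP 1 (log2 -0.40, adjusted p = 0.0502).

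In the rest of the HIF pathway 3 of 7 were higher and 1 was lower. Eloc, elongin C of the Vhl complex, rose from 41.4 ± 3.64 to 57.3 ± 4.92 CPM (log2 0.47, SE 0.142, adjusted p = 0.0176). With library totals the difference of Eloc was 0.14 (adjusted p = 0.403), and the call was also lost without Ctrl 3, LIP 2 or LIP 3 (adjusted p = 0.0729, 0.0668 and 0.0523). Siah2, a ubiquitin ligase that degrades prolyl hydroxylases, fell from 62.0 ± 5.53 to 28.8 ± 5.65 CPM (log2 -1.11, SE 0.172, adjusted p = 0.000346). Arnt, the partner of Hif1a, named after its values were seen because its mean FPKM was under 5, rose by log2 1.03 (SE 0.175, adjusted p = 0.00065). Of 13 other hypoxia-responsive genes 8 were higher and 1 was lower, with a median of 0.88. Plin2, a lipid droplet coat protein, was at 39.4, 50.9 and 34.1 CPM in Ctrl and 132, 176 and 141 CPM in LIP (log2 1.85, SE 0.175, adjusted p = 1.06e-05). The 1 gene that fell was Tfrc, the transferrin receptor, from 23.6 ± 6.49 to 4.91 ± 2.49 CPM (log2 -2.27, SE 0.372, adjusted p = 0.000519), also named after its values were seen.

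**Figure D4:**
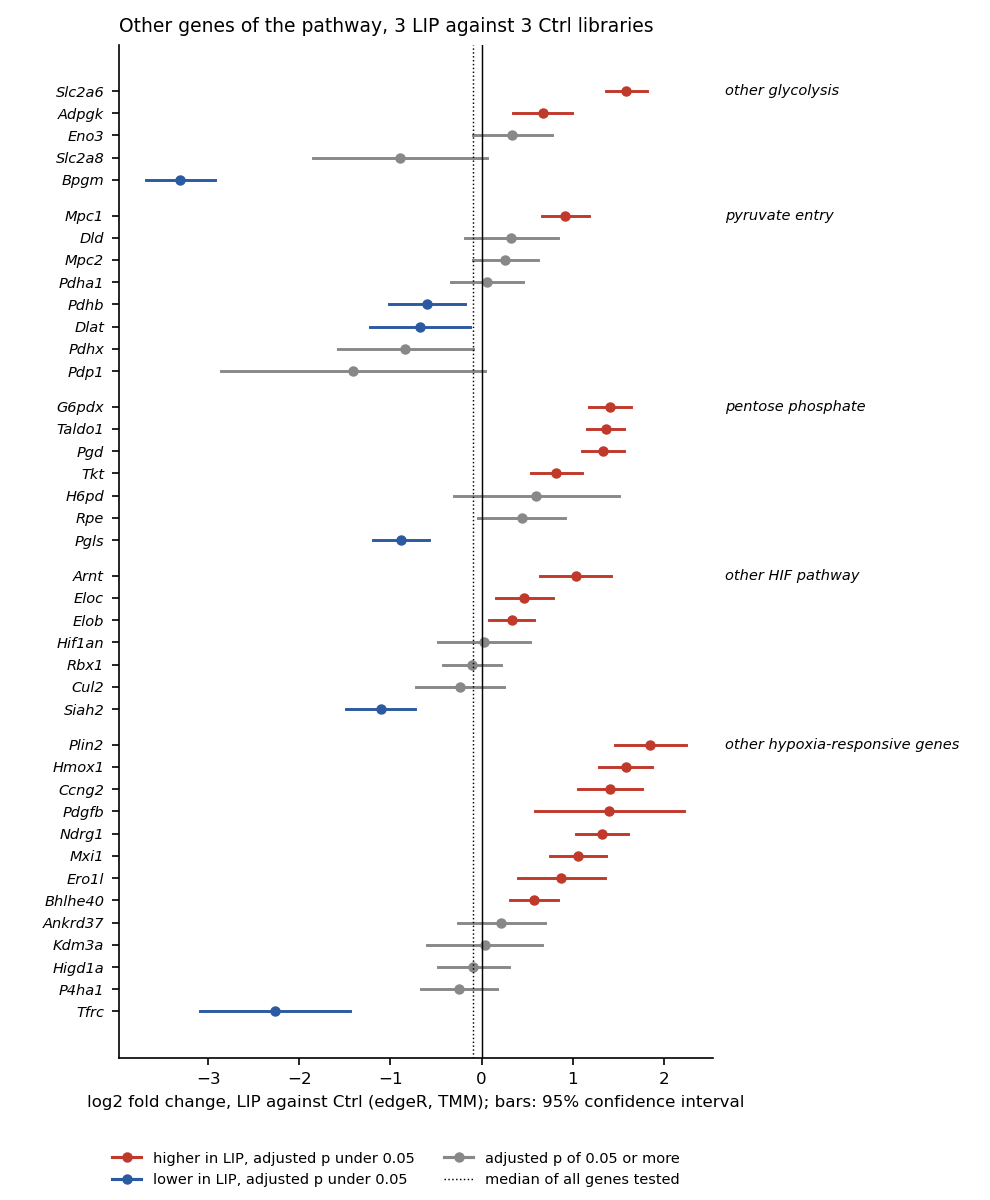
Log2 fold change of LIP against Ctrl under TMM scaling for 40 other genes of the pathways, in 5 lists, from 3 libraries per group. Points, bars (95% confidence intervals) and colours mean the same as for the 33 genes. Of these, 18 are red and 6 blue, where 26.5% of all genes tested were higher and 27.2% lower. Bpgm (-3.31) lies lowest and Plin2 (1.85) highest, and 0 of the 40 stay higher when scaled to mature neutrophil genes.

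Each scaling of the libraries shifted the fold changes of all genes together. The median of the 33 genes was 0.90 with TMM and 0.93 with median-of-ratios factors, and also 0.90 with TMM after removal of the haemoglobin genes, where the medians of all genes were -0.10, -0.06 and -0.10. With library totals it was 0.57 beside a median of -0.42 for all genes, and with mature neutrophil genes -0.92 beside -1.92. With library totals 18 of these genes were higher and 5 lower, and over all genes 1898 were higher and 4183 lower, where TMM gave 2764 and 2839. Only Hk3, Pfkfb4 and Egln3 kept a positive fold change (0.05, 0.25 and 0.04) with mature neutrophil genes as the scale, and none of these was called.

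**Figure D5:**
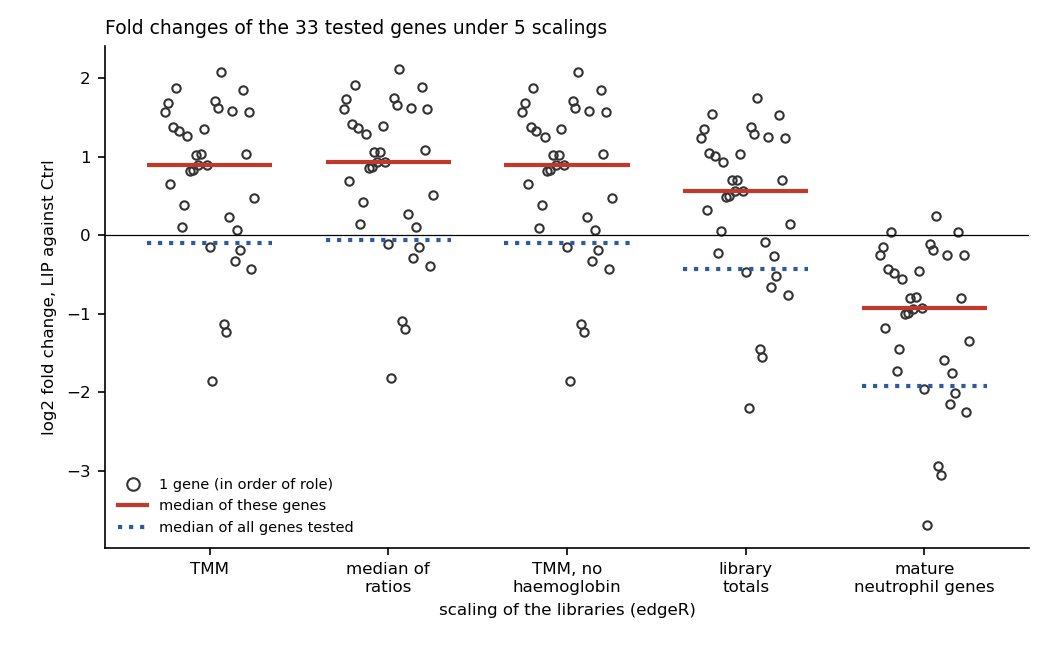
Log2 fold change of the 33 tested genes (circles, spread sideways in order of role) with 5 scalings of the libraries in edgeR. Solid lines mark their median and dotted lines the median of all genes tested. The circles lie above the dotted line for most genes with each scaling, and drop below 0 for all but Hk3, Pfkfb4 and Egln3 with mature neutrophil genes as the scale.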

How the data were processed

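PB neutrophils of 3 Ctrl and 3 LIP pools of 5 mice were profiled by Smart-seq2 with paired-end reads of 150 bases. Deposited were unnormalized read counts of each gene and FPKM, for which the authors scaled by gene length and library total. The submitters' processing notes name cutadapt 1.9, FastQC and GRCm38. The aligner, counter, annotation and strand setting are not given in the sources used here. The table holds 29097 rows and 29044 names, and the row with the highest mean FPKM was used for a repeated name.

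Groups were taken from the sample labels. Counts were tested with edgeR 4.0.16 (R 4.3.3; quasi-likelihood, TMM, no replicate block) where the mean FPKM reached 1 or more (10433 genes), adjusted by the Benjamini-Hochberg method over all of them, with calls at 0.05. A standard error is the size of the log2 fold change over the root of F. CPM uses TMM library sizes. The common biological coefficient of variation was 0.265. No pair of libraries in a group was within sampling noise (chi-square per gene 51.8 to 126). The members and lists were chosen with earlier results of these data known. All 36 members are named. Values of every library are given for the most abundant, the most raised and the most lowered called gene of each role and where a result turns on them. Of other lists the called genes with the largest rise and fall at a mean FPKM of at least 5 are named.

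Alternatives were other scalings (library totals, median-of-ratios, mature neutrophil genes, no haemoglobin genes), DESeq2 1.42.0, limma 3.58.1 on log2(FPKM + 1) and log2(FPKM + 0.1), other filters (a mean FPKM of 5, filterByExpr, none), a replicate block and the omission of each library in turn. Promoter windows were taken from RefSeq (GRCm38.p6), whose build is that of the table.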

Additional observations from a re-analysis of the deposited data

How the results depend on the processing

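Other filters changed the numbers tested: a mean FPKM of 5 left 26 of these genes and 29 others. With filterByExpr 36 and 53 were tested, and with no filter 36 and 63. The count of 22 higher genes stayed between 17 and 22 under every alternative except scaling to mature neutrophil genes. That of 18 other pathway genes stayed between 12 and 18, again except with that scaling. There edgeR called 0 higher and 24 lower of the 33 genes, and 0 higher and 35 lower of the 40 others, beside 54 higher and 9208 lower (88.3%) of all 10433 genes. At an unadjusted p under 0.05 the numbers were again 0 and 24, and 0 and 35, and no other tool was run with this scaling. The signs of 23 genes reversed: Slc2a1 -0.25, Slc2a3 -0.15, Hk1 -1.19, Hk2 -0.43, Gpi1 -0.48, Pfkl -1.73, Pfkp -1.44, Aldoa -0.56, Tpi1 -0.997, Gapdh -0.99, Pgk1 -0.79, Pgam1 -0.93, Eno1 -0.78, Pkm -0.46, Ldha -0.92, Slc16a3 -0.11, Pfkfb3 -0.19, Pdk3 -1.59, Hif1a -0.25, Egln1 -1.75, Vegfa -0.79, Bnip3 -0.25 and Ddit4 -1.34. By construction this scaling subtracts the rise of the marker genes.

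Lower genes were 3 of 33 and became 5 with library totals, 6 and 5 with limma at pseudocounts of 1 and 0.1, and 1 with no filter. The other 40 had 6 lower genes, which became 12, 11 and 11 with library totals and these limma fits. The added lower calls include Egln2 and Vhl, and also Pdk2 with limma at a pseudocount of 1. The cause was not tested. Leaving out a library gave 20 to 22 higher and 1 to 3 lower genes, the lowest without Ctrl 1, where Slc16a1 and Pdk1 lost their calls, and 16 to 18 higher and 5 to 7 lower other genes. The calls of Hk1, Pfkp and Pdk1 held in 3, 2 and 2 of these 6 fits. With library totals Hk1 (adjusted p = 0.263), Pfkp (0.761), Gapdh (0.0535) and Vegfa (0.0619) lost their calls. Hk1, Pfkp and Vegfa lost theirs in both limma fits, Hk2 (0.0648) with limma at a pseudocount of 0.1, Hk1 and Pfkp at a mean FPKM of 5, Hk1, Pfkp and Pdk1 with filterByExpr and with no filter, and Slc16a1 (0.0628) with no filter.

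Replicate numbers did not pair the libraries: deviations of same-numbered libraries correlated at 0.022, 0.0582 and 0.0363. The replicate block gave 21 higher and 3 lower genes and 18 and 6 others, Pfkp (adjusted p = 0.0624) being the only gene of the 33 whose call it changed. The number of pools, 3 per group, limits the precision of all values.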
